A study of Mus musculus with 12 samples.

Results

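The genes described here are 38 genes of sugar breakdown and of the response to low oxygen, 20 glycolytic enzymes and carriers and 18 targets or sensors of the HIF pathway, read in macrophages from mouse tumours. They were chosen by gene symbol, and each was represented by its brightest probe, with its other probes as a check. Of the 38 genes, 35 had a probe listed on the array and 34 passed the filter on dim probes, out of 14102 genes that passed it in all. Gpi1, Eno1 and Hk2 had no listed probe and were not analysed here. Bnip3 had a probe that was not well above background on any group array, with raw signals of 83.2 to 93.2. Of the 34 genes, 28 were above background on all 8 group arrays, 14 in each list.

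Glycolysis turns glucose into pyruvate in the cytosol, and lactate dehydrogenase and the monocarboxylate carriers then turn pyruvate into lactate and export it. HIF-1 is a transcription factor whose alpha subunit is hydroxylated by the EGLN prolyl hydroxylases when oxygen is present and is then destroyed, so in low oxygen it accumulates and switches on most genes of glycolysis together with genes for pH control, mitophagy and collagen modification. Tumour-associated macrophages are known to gather in poorly oxygenated tumour regions and to use this program.

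The study compared macrophages lacking S1PR1, a receptor for sphingosine-1-phosphate, with wild-type macrophages. Cells high in CD11b were sorted from 2 tumours of C57BL/6 mice, the PyMT breast tumour in females and the MCA fibrosarcoma in males, and the RNA of pooled cells was amplified and read on single-colour Illumina BeadChips. The groups were S1PR1 knockout from PyMT tumours (KO_PyMT), wild type from PyMT tumours (WT_PyMT), knockout from MCA tumours (KO_MCA) and wild type from MCA tumours (WT_MCA), with 2 arrays each. The sources used here do not give how S1PR1 was deleted, in which cells, or the age of the mice. Whether the replicates of a group are separate mice is also not stated, and the p-values therefore cover array-to-array spread alone, which may be technical. Tumour type went with sex and with BeadChip and cannot be told apart from them.

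Between 39.6% and 50.2% of the probes of an array were above background. The probe of S1pr1 was above background on 0 of 12 arrays and so checked nothing. All 14 measured macrophage markers, among them Adgre1, Csf1r, C1qb and Lyz2, were above background on every array. Markers of other cells differed between arrays, and markers not well above background still add to the sums given here. The summed intensity of 17 measured fibroblast and sarcoma markers was 774 to 795 on KO_MCA arrays, against 506 on WT_MCA replicate 1 and 3392 on WT_MCA replicate 2, and 476 to 928 on KO_PyMT arrays, against 409 to 497 on WT_PyMT arrays. The sum of 9 neutrophil markers was 299 to 519 on KO_PyMT arrays, against 288 to 299 on WT_PyMT arrays, and 554 to 943 on KO_MCA arrays, against 237 to 522 on WT_MCA arrays. The sum of 7 monocyte markers was 285 to 426 on KO_PyMT arrays, against 445 to 560 on WT_PyMT arrays, and 545 to 689 on KO_MCA arrays, against 539 to 1008 on WT_MCA arrays. In PyMT the sums of 6 T and NK cell markers, 235 to 280 on KO_PyMT arrays, against 169 to 220 on WT_PyMT arrays, did not overlap. Of these 6 markers, however, 2 measured higher and 4 lower in KO_PyMT, with a median log2 difference of -0.06 and a highest of 2.11. The sums of 5 endothelial markers, 112 to 128 on KO_PyMT arrays, against 139 to 144 on WT_PyMT arrays, did not overlap either, with 1 marker higher and 4 lower. Of these 5 markers, 3 were above background on each KO_PyMT array and 3 to 5 on WT_PyMT arrays. In MCA the sum of 7 dendritic cell markers was 192 to 193 on KO_MCA arrays, against 153 to 170 on WT_MCA arrays, with 7 of 7 higher. Of these 7 markers, 4 to 6 were above background on KO_MCA arrays and 2 to 3 on WT_MCA arrays. The part of these cells in the member values was not tested. In bulk RNA, fewer cells of a type and less RNA per cell cannot be told apart.

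In PyMT tumours most of the glycolytic genes measured higher in knockout macrophages, but none passed the test. Of the 34 genes, 25 measured higher and 9 lower in KO_PyMT than in WT_PyMT, with a median log2 difference of 0.12, against 0.00 over all genes. limma called 0 of 14102 genes in this comparison (0%), with a smallest adjusted p of 0.0726, and 0 of the 34 members. At an unadjusted p under 0.05 there were 4 members, against 10.9% of all genes, and all 4 were higher, against 4.77%. On 12 members both KO_PyMT arrays lay above both WT_PyMT arrays, against 17.1% of all genes. They were Hk1, Pfkfb3, Pfkfb4, Eno2, Pkm, Ldha, Slc16a3, Egln3, Car9, Adm, Ero1l and Mxi1, of which Ero1l was not well above background on any PyMT array, Eno2 on all but KO_PyMT replicate 1 and Adm on either WT_PyMT array, so their order partly or wholly rests on background signal. On 2 members, Bnip3l and Kdm3a, they lay below, against 18.6%.

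Among the glycolytic enzymes and carriers, 14 of 17 measured higher in KO_PyMT and 3 lower, with a median of 0.23. Slc16a3, the lactate exporter MCT4, had log2 intensities of 6.75 and 7.24 on KO_PyMT arrays, against 5.58 and 6.11 on WT_PyMT arrays. Both knockout arrays were above both wild-type arrays, by 1.15 ± 0.31 (SE) on the log2 scale or 2.22-fold (limma adjusted p = 0.260). The other Slc16a3 probes, both dim and each not well above background on at least 1 array, gave 0.06 and -0.16. The mean of the probes gave 0.35, and the brightest probe gave 0.63 with no background correction.

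Pfkfb3, which makes the fructose bisphosphate that activates phosphofructokinase, measured 6.24 and 6.11 in KO_PyMT, against 5.74 and 5.68 in WT_PyMT. The groups did not overlap, and the difference was 0.46 ± 0.19 (limma adjusted p = 0.437). Its relative Pfkfb4 measured 8.04 and 8.85 in KO_PyMT, against 7.18 and 7.98 in WT_PyMT, but its other probe ran the opposite way, at -0.83. That other probe was not well above background on KO_PyMT replicate 2 or WT_PyMT replicate 1. It measured 4.84 on KO_PyMT replicate 1 and 6.36 on WT_PyMT replicate 2. Ldha, the muscle-type subunit of lactate dehydrogenase, measured 10.12 and 10.04 in KO_PyMT, against 9.80 and 9.73 in WT_PyMT. The groups did not overlap, and the Ldha difference was 0.32 ± 0.23, not called (limma adjusted p = 0.681). Pkm, the pyruvate kinase of macrophages, measured 9.37 and 9.42 in KO_PyMT, against 9.15 and 9.13 in WT_PyMT, and its difference was 0.26 ± 0.17. On its other probe, at 0.23, the groups overlapped.

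For the other enzymes of the trunk, Aldoa, Tpi1, Gapdh, Pgk1 and Pgam1, the differences on the brightest probe lay between 0.06 and 0.23. The other probes of Tpi1 and Pgam1 ran the opposite way, at -0.30 and -0.23, and on that of Pgam1 both KO_PyMT arrays (6.03 and 5.90) lay below both WT_PyMT arrays (6.15 and 6.24). The difference of the glucose carrier Slc2a1 (GLUT1) was 0.08 ± 0.25. Of the hexokinases, which trap glucose in the cell, Hk1 measured 4.46 and 4.75 in KO_PyMT, against 4.36 and 4.31 in WT_PyMT, with WT_PyMT replicate 2 not well above background, and Hk3 differed by -0.17 ± 0.47. Pfkl and Pfkp, the liver and platelet phosphofructokinases, differed by -0.07 ± 0.21 and 0.32 ± 0.50, with 0.86 on the other Pfkl probe and -0.01 on the other Pfkp probe. The other Pfkl probe was not well above background on KO_PyMT replicate 2 or WT_PyMT replicate 1. Eno2, the neuronal enolase, was above background in PyMT only on KO_PyMT replicate 1, so the size of its difference cannot be given. Aldoc, a second aldolase, was dim and differed by -0.01. The 95% interval of the difference lay within 1 log2 unit of 0 for 12 of the 17 glycolytic genes and for 7 of the 17 HIF genes, so a change of 2-fold stays within the interval for the rest.

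**Figure D1:**
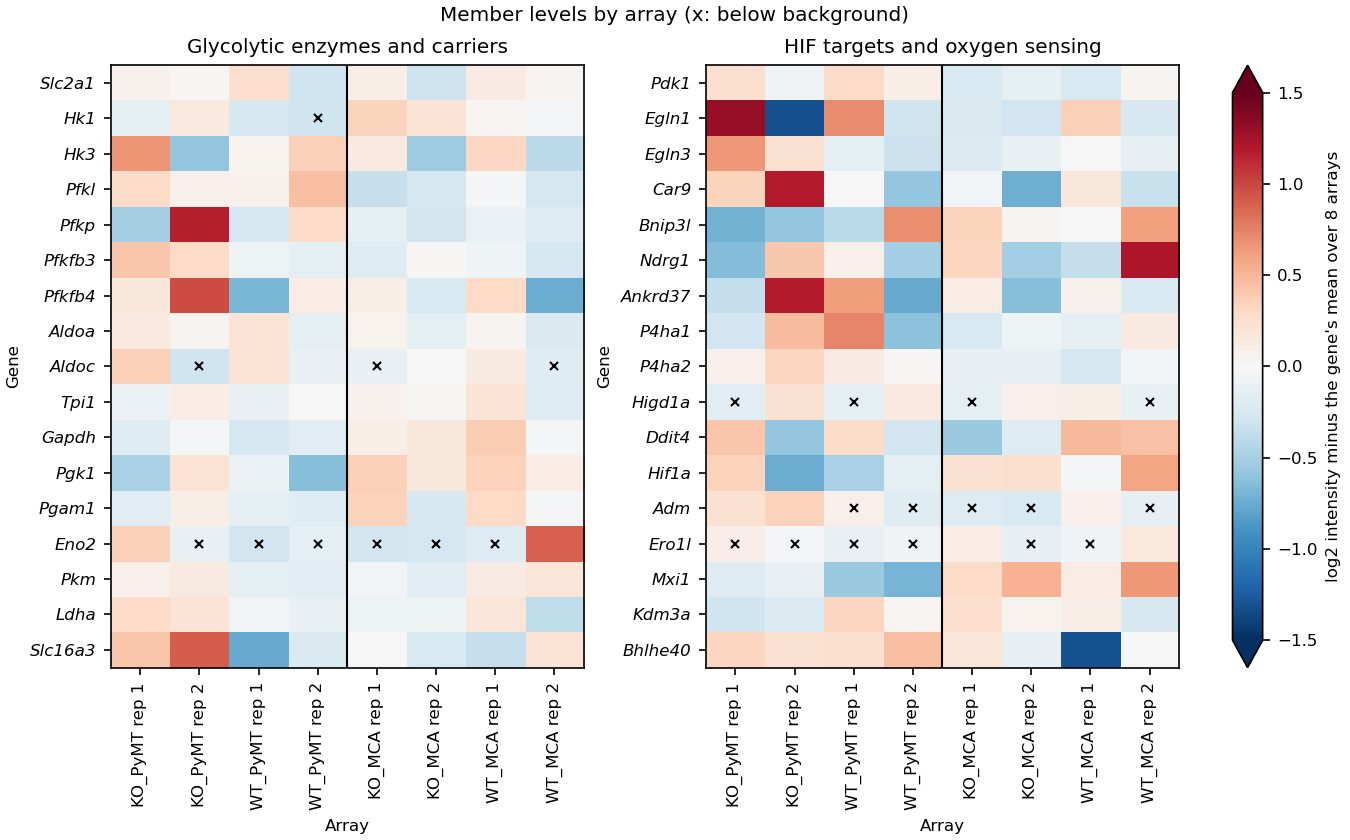
Log2 intensity of each of the 34 genes (rows) on each of the 8 group arrays (columns), as the difference from the gene's mean, with red higher, blue lower and a cross where the probe was not well above background; the colours end at 1.5. KO_PyMT replicate 1 and replicate 2 differ most from each other, for example on Egln1 (7.52 and 4.89) and Pfkp (6.79 and 8.45).

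Among the HIF targets and sensors, 11 of 17 measured higher in KO_PyMT and 6 lower, with a median of 0.10. Egln3, a prolyl hydroxylase that HIF itself induces, measured 6.29 and 5.88 in KO_PyMT, against 5.52 and 5.33 in WT_PyMT. The groups did not overlap, and the difference was 0.66 ± 0.21 (limma adjusted p = 0.335). A dimmer probe was not well above background on any PyMT array and gave no check. Car9, a membrane carbonic anhydrase that handles acid outside hypoxic cells, measured 6.08 and 6.95 in KO_PyMT, against 5.76 and 5.18 in WT_PyMT, a difference of 1.05 ± 0.40 (limma adjusted p = 0.416). Its other probe gave 0.61, and in PyMT it was above background only on KO_PyMT replicate 1, at 5.52. The Car9 difference was 1.48 without KO_PyMT replicate 1, 0.62 without KO_PyMT replicate 2 and 0.51 with no background correction.

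Not all HIF targets leaned this way. Bnip3l, a mitophagy receptor, measured 5.17 and 5.31 in KO_PyMT, against 5.48 and 6.58 in WT_PyMT, a difference of -0.79 ± 0.39 (limma adjusted p = 0.545). Kdm3a, a histone demethylase, measured 5.09 and 5.18 in KO_PyMT, against 5.71 and 5.42 in WT_PyMT, and its other probes ran both ways, at 0.09 and -0.79. The probe at -0.79 was not well above background on either KO_PyMT array. Mxi1, a repressor of the MYC network, measured 5.23 and 5.32 in KO_PyMT, against 4.87 and 4.74 in WT_PyMT, and its difference was 0.47 ± 0.23. Its other probe, not well above background on WT_PyMT replicate 2, gave 0.47. Pdk1, which keeps pyruvate out of the mitochondrion, differed by -0.09 ± 0.20, and Hif1a, the regulated subunit itself, by 0.12 ± 0.39. A second Hif1a probe gave 0.61 without overlap, with 6.62 and 5.77 in KO_PyMT, against 5.49 and 5.69 in WT_PyMT. Adm, the vasodilator adrenomedullin, was not well above background on either WT_PyMT array and was at least 1.21-fold higher in KO_PyMT. The collagen hydroxylase subunit P4ha2 and the mitochondrial protein Higd1a differed by 0.13 and 0.03. Ero1l, an oxidase of the endoplasmic reticulum, was not well above background on any PyMT array.

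**Figure D2:**
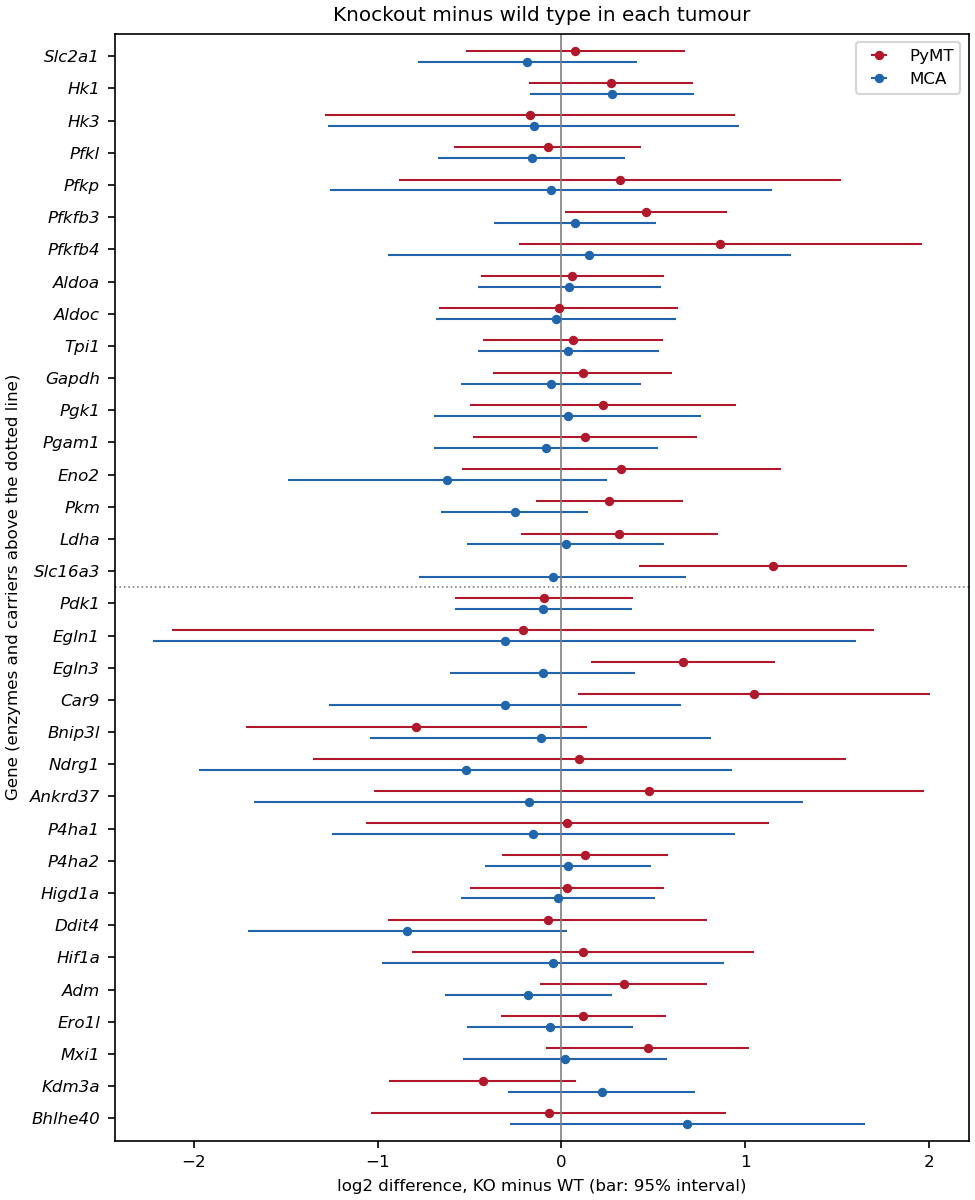
Log2 difference of knockout minus wild type (points) with its 95% interval (bars) for each of the 34 genes, in PyMT (red) and in MCA (blue), from the limma model of 4 groups. In PyMT only Slc16a3 (1.15), Egln3 (0.66), Car9 (1.05) and Pfkfb3 (0.46) have an interval that leaves out 0, and in MCA no gene has; the points of Eno2, Adm and Ero1l rest partly or wholly on signals not well above background.

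The promoters of Slc16a3, Egln3, Car9 and Ankrd37 are shown because the first 3 had the smallest p-values of all members in PyMT and Ankrd37 holds several cores. Each is the RefSeq window of 250 bases before to 50 bases after the gene start, 300 bases of GRCm38.p6 read 5′ to 3′ on the gene's strand. Capitals mark the hypoxia response core, ACGTG or GCGTG, searched on both strands, so that CACGT and CACGC are its reverse forms. The E-box CACGTG contains ACGTG and would be counted as well. Slc16a3 lies at chr11:120948817-120949116 on the plus strand, Egln3 at chr12:54203825-54204124 on the minus strand, Car9 at chr4:43506776-43507075 on the plus strand and Ankrd37 at chr8:45999801-46000100 on the minus strand.
Slc16a3: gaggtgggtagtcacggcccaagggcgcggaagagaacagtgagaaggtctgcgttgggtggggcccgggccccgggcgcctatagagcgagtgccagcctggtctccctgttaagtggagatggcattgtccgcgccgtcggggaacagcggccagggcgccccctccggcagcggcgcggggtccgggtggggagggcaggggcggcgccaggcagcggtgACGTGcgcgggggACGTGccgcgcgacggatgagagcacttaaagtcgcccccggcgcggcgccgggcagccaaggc
Egln3: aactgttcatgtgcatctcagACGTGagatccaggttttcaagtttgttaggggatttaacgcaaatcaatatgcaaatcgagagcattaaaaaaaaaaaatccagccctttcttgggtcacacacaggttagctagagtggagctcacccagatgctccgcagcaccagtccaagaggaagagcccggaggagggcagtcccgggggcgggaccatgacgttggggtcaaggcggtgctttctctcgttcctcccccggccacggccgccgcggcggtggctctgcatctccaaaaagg
Car9: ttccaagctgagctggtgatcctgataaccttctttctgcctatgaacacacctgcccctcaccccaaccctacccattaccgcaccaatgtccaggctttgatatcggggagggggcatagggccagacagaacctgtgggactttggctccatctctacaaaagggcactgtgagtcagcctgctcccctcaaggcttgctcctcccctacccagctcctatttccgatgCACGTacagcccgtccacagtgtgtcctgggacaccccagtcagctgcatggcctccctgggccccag
Ankrd37: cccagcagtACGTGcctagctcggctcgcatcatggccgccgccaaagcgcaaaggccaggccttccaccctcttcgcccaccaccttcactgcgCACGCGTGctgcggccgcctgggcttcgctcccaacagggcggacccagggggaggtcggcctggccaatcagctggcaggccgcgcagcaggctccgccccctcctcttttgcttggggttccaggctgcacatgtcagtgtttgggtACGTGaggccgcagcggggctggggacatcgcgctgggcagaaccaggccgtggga

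The cores of Slc16a3 start 27 and 14 bases before the gene start, the core of Egln3 229 bases before it and the core of Car9 18 bases before it, the last on the opposite strand. Ankrd37 has 4 cores, of which a pair overlaps on the 2 strands. Of the 38 members, 35 matched a promoter in the table; Ndrg1, Bhlhe40 and Bnip3l did not. A core was present in a window of 32 of the 35 members (91.4%), in 17 of 20 glycolytic genes (85%) and in 15 of 15 HIF genes (100%), against 12628 of 27025 genes in the table (46.7%). Genes with several start sites have several windows, and 39 of 49 member windows (79.6%) held a core, against 43.8% of all windows. A match is a description of the letters, not a bound site. The members were picked as HIF targets or as genes of a pathway that HIF switches on. Their higher share of cores may follow from that choice and tests nothing about these macrophages. Tpi1, Eno2 and Gpi1 had no core in their windows.

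In MCA tumours the members measured lower in knockout more often than higher, and none passed the test. Of the 34 genes, 11 measured higher and 23 lower in KO_MCA than in WT_MCA, with a median of -0.06, against 0.00 over all genes. limma called 0 of 14102 genes (0%), with a smallest adjusted p of 1, and 0 of the members had an unadjusted p under 0.05, against 1.55% of all genes. On 1 member, Hk1, both KO_MCA arrays lay above both WT_MCA arrays, against 15.8% of all genes, and on 5 members, Pfkl, Eno2, Pkm, Ddit4 and Adm, they lay below, against 15% of all genes. Hk1 was the 1 member separated the same way in both tumours, against 2.82% of all genes higher in both, and no member was lower in both, against 3.01%. Eno2, Pkm and Adm were separated in opposite ways, higher in KO_PyMT and lower in KO_MCA, against 2.47% of all genes, and no member the other way round, against 2.87%. In MCA Eno2 was above background only on WT_MCA replicate 2 and Adm only on WT_MCA replicate 1, so the separation of both rests on background signal in part. The glycolytic list had 7 members higher and 10 lower with a median of -0.05, and the HIF list 4 higher and 13 lower with a median of -0.10.

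The balance of directions in MCA changed with single arrays. Without WT_MCA replicate 2, the array with the highest fibroblast and sarcoma markers, the glycolytic list had 2 members higher and 15 lower (median -0.19), and the HIF list 9 higher and 8 lower (median 0.03). Without WT_MCA replicate 1 the glycolytic list had 11 higher and 6 lower (median 0.15), and without KO_MCA replicate 2 also 11 higher and 6 lower (median 0.02).

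Ddit4, which restrains mTORC1 signalling under stress, had the largest member difference in MCA. It measured 8.83 and 9.20 on KO_MCA arrays, against 9.87 and 9.83 on WT_MCA arrays, and both knockout arrays lay below both wild-type arrays. The difference was -0.84 ± 0.36 (limma adjusted p = 1), and it ranged from -1.02 to -0.66 when single arrays were left out. In PyMT the same gene measured 9.80 and 8.81 in KO_PyMT, against 9.66 and 9.11 in WT_PyMT, with overlapping groups. Bhlhe40, a clock-linked repressor, averaged 7.85 in KO_MCA and 7.16 in WT_MCA, a difference of 0.68 ± 0.41, and WT_MCA replicate 1, at 6.51, was its lowest array. Slc16a3, Egln3 and Car9 differed by -0.05 ± 0.31, -0.10 ± 0.21 and -0.31 ± 0.40 in MCA. Pkm measured 9.25 and 9.13 in KO_MCA, against 9.41 and 9.47 in WT_MCA, a difference of -0.25 ± 0.17, but its other probe gave -0.01 with overlapping groups.

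**Figure D3:**
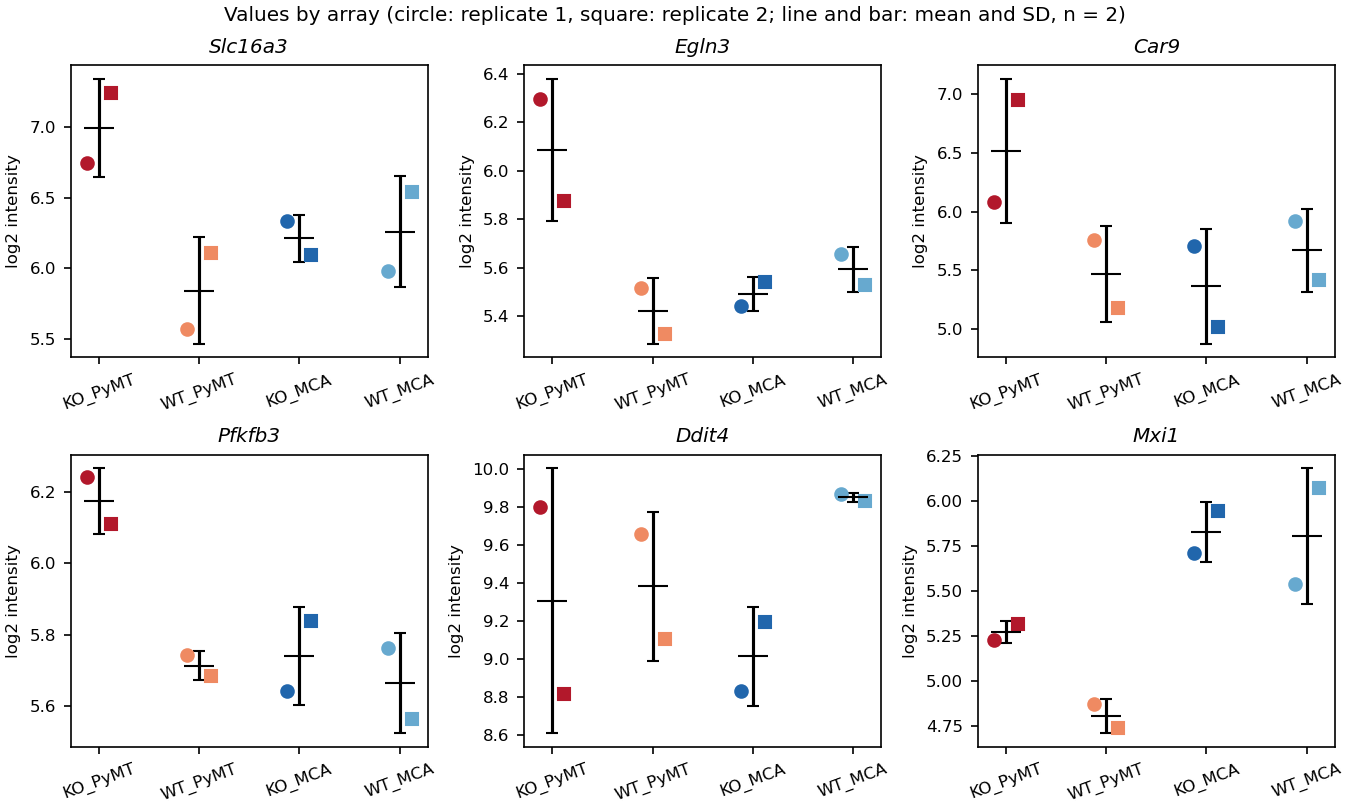
Log2 intensity of 6 genes on each array (circle replicate 1, square replicate 2) with the mean and SD of each group (n = 2), groups in the order KO_PyMT, WT_PyMT, KO_MCA and WT_MCA. Slc16a3, Egln3, Car9 and Pfkfb3 are highest on the KO_PyMT arrays, Ddit4 is lower on both KO_MCA arrays than on both WT_MCA arrays, and Mxi1 is lower on all PyMT arrays than on all MCA arrays; the vertical axes do not start at 0.

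The knockout difference in PyMT minus that in MCA was positive for 29 of 34 members, with a median of 0.19, against -0.01 over all genes. None of these differences was called, nor was any of all genes (0%), and 3 members had an unadjusted p under 0.05, against 5.76% of all genes, and all 3 were positive, against 2.37%. This comparison uses the arrays of both tumour comparisons above. Without single arrays 22 to 28 of the 34 members were positive, with medians of 0.16 to 0.31. The glycolytic list then had 10 to 17 of 17 positive and the HIF list 10 to 14 of 17. The 3 members were Slc16a3 (1.20 ± 0.43, limma adjusted p = 0.797), Egln3 (0.76 ± 0.30, 0.821) and Car9 (1.36 ± 0.57, 0.867). These values were smaller under alternatives, at 0.28 for Slc16a3 and 0.31 for Egln3 with the mean of probes, and at 0.62 for Car9 with no background correction. Over both tumours together 22 members measured higher and 12 lower in knockout, with a median of 0.03. No member was called there, out of 0 calls over all genes (0%, 716 genes at an unadjusted p under 0.05, or 5.08%), and on 0 members did all 4 knockout arrays stand apart from all 4 wild-type arrays, against 1.18% of all genes higher and 1.23% lower.

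Replicate spread differed by group, and in each group its SD was wider over the HIF genes than over the glycolytic genes. The SD of the log2 difference between the replicates was 0.950 over the HIF genes and 0.636 over the glycolytic genes in KO_PyMT, against 0.619 and 0.377 in WT_PyMT. In MCA it was 0.352 and 0.242 in KO_MCA, against 0.599 and 0.471 in WT_MCA. Over all genes it was 0.766 in KO_PyMT, against 0.589 in WT_PyMT, while KO_MCA had 0.373, against 0.482 in WT_MCA. A repeat array of KO_MCA replicate 1 on the other BeadChip gave 0.189 for the glycolytic and 0.300 for the HIF genes, below every group's replicate spread. An SD is open to single genes, and in KO_PyMT the Egln1 replicates differed by 2.63. The median absolute replicate difference in KO_PyMT was 0.382 over the HIF genes, against 0.346 over all genes. It was 0.290 against 0.287 in WT_PyMT, 0.206 against 0.210 in KO_MCA and 0.298 against 0.229 in WT_MCA.

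Egln1, the main oxygen sensor among the prolyl hydroxylases, was the extreme case. Its brightest probe measured 7.52 and 4.89 on KO_PyMT replicates 1 and 2, against 6.92 and 5.91 on the WT_PyMT replicates. Only 121 of 14102 genes (0.858%) differed as much between the KO_PyMT replicates, a gap of 6.19-fold. The other probes showed the gap too, at 7.25 and 5.08, and at 7.37 and 4.93, in KO_PyMT. The knockout difference of Egln1, -0.21 ± 0.80, had the widest error of the 34 members. Egln1 also differed most of the 34 members between arrays of the same sample. The repeat array of KO_MCA replicate 1 on the other BeadChip measured 0.66 higher than the original.

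Other HIF targets also differed between replicates. Ankrd37 measured 5.00 and 6.55 in KO_PyMT, against 5.98 and 4.60 in WT_PyMT. P4ha1, a collagen prolyl hydroxylase subunit, measured 5.72 and 6.48 in KO_PyMT, against 6.74 and 5.39 in WT_PyMT. Its second probe, at 4.59 and 5.71 in KO_PyMT, against 5.02 and 5.33 in WT_PyMT, did not show the WT_PyMT gap. Ndrg1, a stress-induced gene, measured 5.88 and 6.94 in KO_PyMT, against 6.60 and 6.02 in WT_PyMT. On the brightest probe of each, the range within a genotype exceeded the difference of the genotype means. In MCA Ndrg1 measured 6.85 and 6.02 in KO_MCA, against 6.17 and 7.74 in WT_MCA, the highest value being on the array with the highest fibroblast and sarcoma markers. A second Ndrg1 probe was also highest there, at 6.83.

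**Figure D4:**
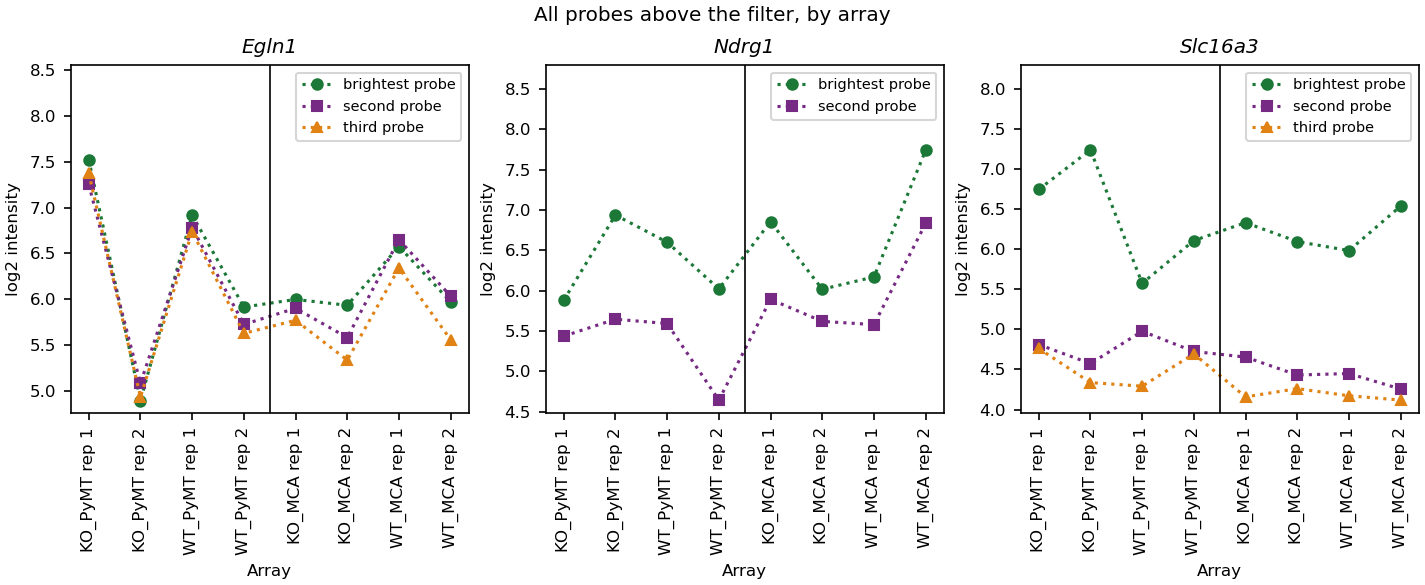
Log2 intensity of every probe that passed the filter for Egln1, Ndrg1 and Slc16a3 on the 8 group arrays, with PyMT left and MCA right of the line. The 3 Egln1 probes move together from array to array and the Ndrg1 probes are both highest on WT_MCA replicate 2, whereas the dimmer Slc16a3 probes do not share the high KO_PyMT values of the brightest.

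Of the 34 members, 18 had more than 1 probe above the filter. All probes of a gene gave the same sign for the knockout difference in 7 of 18 in PyMT and in 12 of 18 in MCA, and for PyMT against MCA in 14 of 18. Some of the signs that differed rest on background signal. In PyMT the second Egln3 probe was not well above background on any array, and probes of Pfkl, Pfkfb4, Slc16a3, P4ha2 and Kdm3a on some arrays. In MCA this held on some arrays for probes of Slc16a3, Egln3, P4ha2 and Hif1a.

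Between the tumours the clearest member on the brightest probes was Mxi1. It measured 5.23 and 5.32 in KO_PyMT and 4.87 and 4.74 in WT_PyMT, against 5.71 and 5.95 in KO_MCA and 5.54 and 6.08 in WT_MCA. Every PyMT array lay below every MCA array, a log2 difference of -0.78 ± 0.18 or 1.72-fold lower (limma adjusted p = 0.128), and its other probe gave -0.89. Against 24 of 14102 genes called over both genotypes (0.17%), no member was called, and 3 members had an unadjusted p under 0.05, against 15% of all genes. Under median scaling, which moved the median of all genes to -0.13, Mxi1 measured -1.04 and was called (limma adjusted p = 0.0451). The 2 probes of Pkm disagreed between the tumours. Its brightest probe differed by -0.05 ± 0.15. The other, dimmer but above background on all 8 arrays, gave -0.89, with every PyMT array below every MCA array.

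Pfkl measured 7.88 and 7.67 in KO_PyMT and 7.66 and 8.04 in WT_PyMT, against 7.25 and 7.33 in KO_MCA and 7.57 and 7.34 in WT_MCA. On this brightest probe every PyMT array lay above every MCA array, by 0.44 ± 0.14 (limma adjusted p = 0.229). The other Pfkl probe, above background on 6 of the 8 arrays, gave 0.25 with overlapping groups, and -0.26 among wild-type arrays alone. P4ha2, a collagen prolyl hydroxylase subunit, and Bhlhe40 were likewise higher on every PyMT array, by 0.27 ± 0.13 and 0.62 ± 0.30. These were 3 of 34 members higher without overlap, against 4.91% of all genes, and Mxi1 was 1 member lower, against 5.53%. The other P4ha2 probes, above background on 4 and 2 of the 8 arrays, gave 0.23 and 0.04 with overlapping groups. Pgk1, the first ATP-yielding enzyme of glycolysis, measured -0.49 ± 0.21, with overlap only at KO_PyMT replicate 2. Its other probe, above background on 5 of the 8 arrays, gave -0.07 with overlapping groups.

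Over all members 20 measured higher and 14 lower in PyMT, with a median of 0.10, and without KO_PyMT replicate 2 the split was 16 and 18, with a median of -0.02. Under median scaling 11 measured higher and 23 lower, with a median of -0.08, against -0.13 over all genes under the same scaling. Among knockout arrays alone 24 members measured higher and 10 lower in PyMT. None was called, against 0.078% of all genes, and 5 (Slc16a3, Egln3, Car9, Adm and Mxi1) had an unadjusted p under 0.05, against 13.5%. Among wild-type arrays 15 measured higher and 19 lower in PyMT. None was called there, against 0.0213% of all genes, and 2 (Mxi1 and Bhlhe40) had an unadjusted p under 0.05, against 7.83%. On the BeadChip that also holds the repeat array of KO_MCA replicate 1, the KO_PyMT arrays could be set against it without a change of BeadChip. The difference of KO_PyMT minus KO_MCA there was -0.73 for Mxi1 and 0.22 for Pfkl, and across BeadChips -0.56 and 0.48. These values reuse the KO_PyMT arrays and rest on 1 MCA array, so no test is given. Mammary epithelial markers, summed over 11 measured genes, were 442 to 663 in KO_PyMT and 564 to 630 in WT_PyMT, against 283 to 286 in KO_MCA and 284 to 294 in WT_MCA. Dendritic cell markers were 244 to 396 in KO_PyMT and 332 to 403 in WT_PyMT, against 192 to 193 in KO_MCA and 153 to 170 in WT_MCA, with 7 of 7 higher in PyMT. Of these 7 markers, 5 to 6 were above background on KO_PyMT and on WT_PyMT arrays, 4 to 6 on KO_MCA arrays and 2 to 3 on WT_MCA arrays. The 14 macrophage markers summed to 9685 to 10315 in KO_PyMT and 9647 to 10520 in WT_PyMT, against 10917 to 11243 in KO_MCA and 11162 to 11804 in WT_MCA, with 11 of 14 lower in PyMT. The part of these markers in the tumour differences was not tested.

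**Figure D5:**
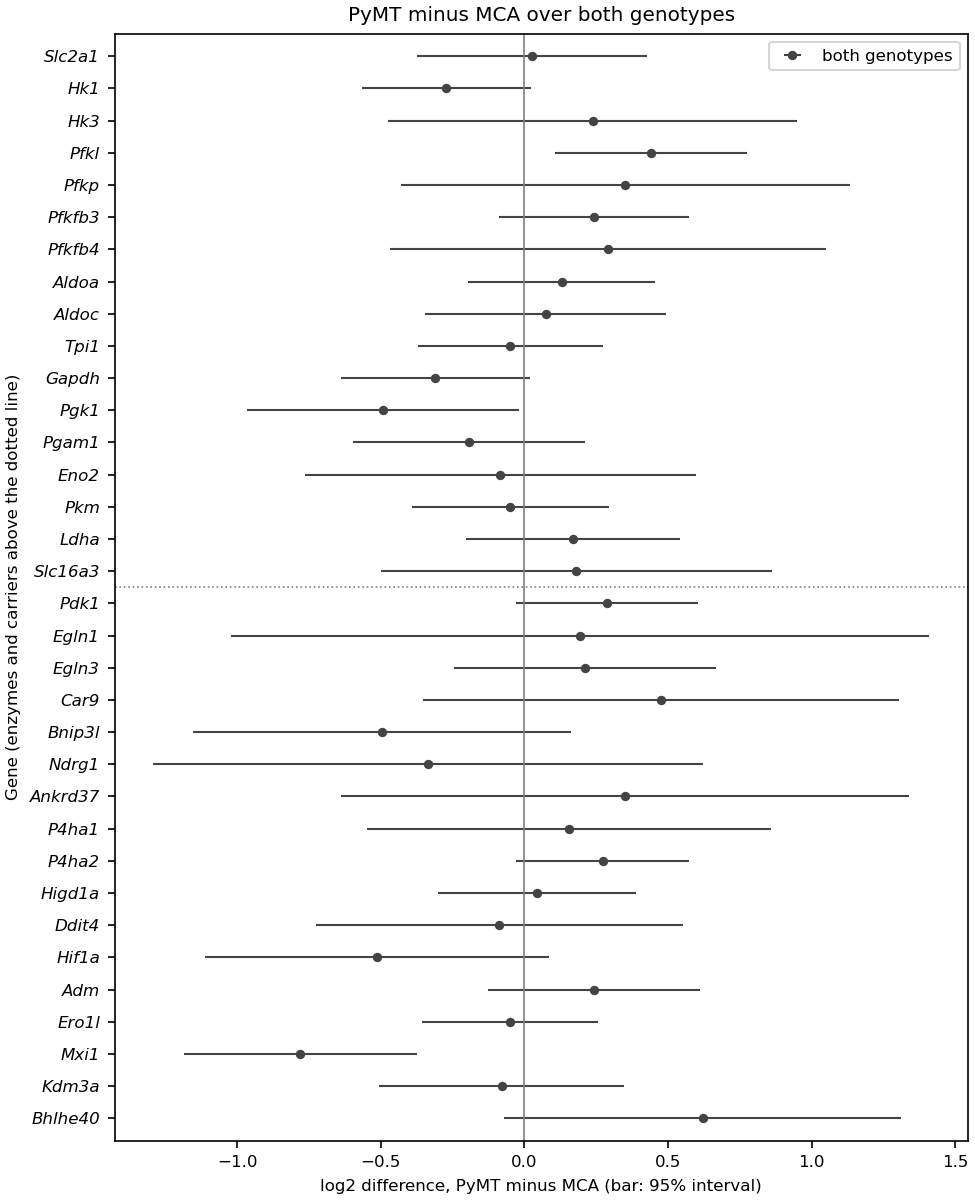
Log2 difference of PyMT minus MCA over both genotypes (points) with its 95% interval (bars) for each of the 34 genes, from the additive limma model. Mxi1 (-0.78), Pfkl (0.44) and Pgk1 (-0.49) have intervals that leave out 0 on the brightest probe. Their other probes gave -0.89, 0.25 and -0.07.

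Related genes outside the members gave 0 calls in every comparison. Of 16 measured of 27 genes of other glycolytic, lactate and pyruvate steps, 5 measured higher and 11 lower in KO_PyMT, with a median of -0.18. Slc2a3, the glucose carrier GLUT3, differed by -1.03 ± 0.26 (limma adjusted p = 0.239), with 1 of the 2 KO_PyMT arrays above background. Slc16a1, the lactate carrier MCT1, was not well above background in WT_PyMT and at least 1.57-fold higher in KO_PyMT. Of 12 measured of 14 pentose phosphate and glycogen genes 6 measured higher and 6 lower in KO_PyMT. Rpia, which isomerises ribose phosphate, differed by -1.29 ± 0.22 (limma adjusted p = 0.147) and Pgls, the lactonase of the same pathway, by 0.83 ± 0.24 (0.288), with -0.45 to 0.92 on its other probes. Of 33 measured of 41 other oxygen sensing genes and HIF targets 20 measured higher and 13 lower in KO_PyMT, with a median of 0.13. Arnt, the partner of HIF alpha subunits, differed by 0.95 ± 0.33, with -0.48 to 0.39 on its other probes, and Hmox1, heme oxygenase, by 0.96 ± 0.34.

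In MCA the same 3 lists had 11 of 16, 5 of 12 and 15 of 33 genes higher in knockout. Plod2, a collagen lysyl hydroxylase, differed by 0.72 ± 0.22 (limma adjusted p = 1), but its other probes gave -0.55 and -0.29. Pdk3, another pyruvate dehydrogenase kinase, differed by 0.57 ± 0.33, and Bpgm, which makes bisphosphoglycerate, by -0.31 ± 0.18. Pgf, a growth factor of the VEGF family, differed by 0.41 ± 0.19, with 1 of the 2 WT_MCA arrays above background. Rpia differed by -0.21 ± 0.22, and Gbe1, the glycogen branching enzyme, was at least 1.17-fold lower in KO_MCA. Between the tumours Pdha1, a subunit of pyruvate dehydrogenase, averaged 5.44 in PyMT and 7.01 in MCA, a difference of -1.58 ± 0.38 (limma adjusted p = 0.140), and every PyMT array lay below every MCA array. Gpd1, a glycerol phosphate dehydrogenase, differed by 0.43 ± 0.13 and was higher on every PyMT array. It was above background on 3 of 4 PyMT and 2 of 4 MCA arrays, so its separation rests partly on background signal. Pgls, Gys1 (glycogen synthase), Fam162a and Ppfia4 differed by 0.53 ± 0.19, 0.67 ± 0.27, -0.84 ± 0.30 and 0.57 ± 0.20, each with overlapping groups.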

How the data were processed

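Macrophage RNA was read on 12 single-colour arrays, of which 8 formed the 4 groups. The deposited intensity is, per the file headers, the mean bead signal of a probe; it is linear and its array medians differ. Each has a deposited detection p-value. The authors also deposited normalized intensity values with medians of 88.7 to 90.0; the sources used here do not name the normalization. The precision is limited by the number of arrays.

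All 12 arrays were corrected and quantile normalized together with neqc of limma 3.58.1 in R 4.3.3 (offset 16). A probe was kept where 2 or more of the 8 group arrays had a detection p under 0.05, and the brightest probe then stood for its gene, which left 14102 genes. Symbols came from the platform table, updated through RefSeq (937 probes). Two-sided p-values were Benjamini-Hochberg adjusted across the 14102 genes and called under 0.05. The limma model held 4 groups, or genotype and tumour for results over both. The fit was tested on simulated data. Alternatives changed the background correction, normalization, filter, probe choice, weights, blocking and the arrays used. The sources used here do not state whether the replicate numbers pair samples, and the main model held no pairing. The correlation of replicate deviations was -0.004 in PyMT and 0.076 in MCA, which cannot settle this. All members are named, and of each other pathway list the called genes or, with none, the 2 with the smallest p in a comparison. Members and lists were chosen with earlier results of these data known.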

Additional observations from a re-analysis of the deposited data

Results flagged for a closer look

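Pkm, Eno2 and Adm had both knockout arrays on opposite sides of the wild-type arrays in the tumours, higher in PyMT and lower in MCA. This was 3 of 34 members, against 2.47% of all genes, and no member had the reverse, against 2.87%. For Pkm the differences were 0.26 in PyMT and -0.25 in MCA, and the difference of the effects was 0.52 ± 0.24 (limma adjusted p = 0.892). Its other probe, above background on all 8 arrays, gave 0.23 in PyMT and -0.01 in MCA with overlapping groups in both. Eno2 and Adm rest on signals not well above background, so their fitted values, 0.33 in PyMT and -0.62 in MCA for Eno2 and 0.34 in PyMT and -0.18 in MCA for Adm, are not measured sizes. Eno2 was above background only on KO_PyMT replicate 1 and WT_MCA replicate 2, so neither a size nor a bound can be given for either tumour. Adm was above background on both KO_PyMT arrays and on WT_MCA replicate 1. It was at least 1.21-fold higher in KO_PyMT by the group means, and no bound can be given for MCA. The opposite directions of Eno2 and Adm are therefore not established.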

How the results depend on the processing

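No member was called in any comparison under any alternative except Mxi1 for PyMT against MCA over both genotypes, where median scaling gave 1 member called. The counts of called genes moved more. For knockout against wild type in PyMT 7 genes were called with no background correction, 6 with the authors' normalized values and 4 with no filter on dim probes. Leaving out single arrays gave 0 to 118 (118 without KO_PyMT replicate 1, 41 without KO_PyMT replicate 2). Over both tumours the knockout comparison gave 2 calls with no background correction and 2 with the authors' values. The difference of the effects gave 0 to 1 without single arrays. PyMT against MCA over both genotypes gave 38 with normexp, 46 with no background correction, 43 with the authors' values, 72 with median scaling and 14 with genes above background on all 8 arrays, and 8 to 31 without single arrays. Among knockout arrays it gave 22 with normexp, 19 with the authors' values, 34 with the mean of probes, 6 with array weights, 0 with genes above background on all 8 arrays and 0 on 1 BeadChip, and 1 to 135 without single arrays. Among wild-type arrays it gave 1 with no filter and 0 with genes above background on all 8 arrays, and 1 to 16 without single arrays. With the replicate number as a block these tumour comparisons gave 11, 1 and 0 calls, and no member call changed. The cause was not tested.

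The sign of the difference held under every alternative for 16 of 34 members in PyMT, 10 in MCA and 14 for PyMT against MCA. The glycolytic list had 12 to 15 of 17 members higher in KO_PyMT without single arrays. Leaving out 1 array of a group takes the spread of the lone array from the rest. Dim probes such as Eno2, Adm and Ero1l limit what could be measured.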

Other observations

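The internal control arrays of mixed macrophages belong to no group, and what was mixed is not stated. Slc16a3 measured 5.88 on the mixed PyMT array and 5.47 and 6.65 on the mixed MCA arrays. Egln3 measured 5.45 on the mixed PyMT array and 5.54 and 5.95 on the mixed MCA arrays, and Car9 5.45 on the first and 5.47 and 5.31 on the others. Mxi1 measured 5.20 on the mixed PyMT array, below the 5.82 and 6.01 of the mixed MCA arrays. Hk1 measured 5.47 on the mixed PyMT array, above the 4.31 to 4.75 of the PyMT group arrays. The Eno1b probe, which shares a synonym with Eno1 in RefSeq, measured 5.91 and 5.91 in KO_PyMT, against 5.88 and 5.48 in WT_PyMT, and 6.19 and 6.42 in KO_MCA, against 5.78 and 5.96 in WT_MCA. Whether it reads Eno1 was not tested.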
